A study of Bos taurus with 15 samples.

Results

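In the testis of 14 cattle, 100 array probes split the animals into a low and a high level with an empty stretch between them. They were chosen by their measured values from the 18485 of 21475 probes whose signal stood well above background in 7 or more of the 14 animals. For each probe the 14 levels were sorted, the widest gap between neighbours that left at least 3 animals on each side was taken, and the 100 probes with the widest gaps were kept. A level is the log2 processed signal minus the array's own 75th percentile, so it has a meaning only within a probe. The gap, the animals on each side and every difference between the sides were used by this choice and are given as descriptions without a test. The choice did not use treatment or slide, which can be tested.

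The study treated 8 cattle with prednisolone, a synthetic glucocorticoid, at a daily oral dose of 30 mg for each animal over 35 days, and kept 7 untreated cattle as controls. Testis was taken at slaughter, total RNA of each animal was put on 1 single-colour Agilent array, and no age, breed or relationship is given in the labels used here. The series text calls the treated animals cows although the tissue is testis. The members rest on 7 prednisolone animals (25, 26, 27, 28, 29, 31 and 32) and 7 controls (17, 18, 20, 21, 22, 23 and 24). Prednisolone 30 was left out, because 36.5% of its probes were well above background against 82.2% to 89.9% on the other 14 arrays. In bulk tissue, fewer cells of a type and less RNA per cell cannot be told apart. All 8 tested spermatid probes, such as those of the protamines that pack sperm DNA, and all 9 Sertoli cell probes were well above background on all 14 arrays. So were 6 of 7 Leydig cell probes.

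Beta-defensins, small antimicrobial peptides of epithelia and phagocytes, form a large gene family in cattle. The major histocompatibility complex (MHC) class I genes, called BoLA in cattle, present peptides to T cells and are among the most variable genes of vertebrates. No probe sequences were used here, so signal from closely related genes or alleles cannot be told apart in any of these families.

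The widest gaps were far outside the bulk of the probes. The members' gaps ran from 0.86 to 6.62 on the log2 scale with a median of 1.20, and the median over all 18485 probes was 0.16. Of the 100 gaps as measured, 71 exceeded 1, 25 exceeded 2 and 10 exceeded 3. With signals beneath the measurable range raised to a floor, the dimmest signal well above background on each array, these counts were 47, 19 and 8. The median floored gap was 0.98, and 15 members had no gap left. In 35 members the gap was wider than the spread of levels on either side of it, which held for 0.611% of all tested probes. The last probes inside were MMD at 0.88, GPR143 at 0.86 and CYP2C88 at 0.86, and the first outside were CGNL1 at 0.85, HTRA3 at 0.85 and CHN2 at 0.84. The limit of 100 therefore does not mark a step.

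The low level was often beneath the measurable range: 49 members were well above background on all 14 arrays, against 91.0% of all tested probes. In 22 members no animal on the low side was well above background, and in 29 some were. For these the measured gap includes signal that cannot be told from background, and only the floored gap is a lower bound, written as "at least" where it is given.

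The enteric beta-defensin EBD, labelled DEFB1 on the array, had the widest gap of all. Its level was -5.49 in prednisolone 25, -5.61 in prednisolone 27 and between 1.49 and 3.24 in the other 5 prednisolone animals. It was -5.13 in control 18 and between 1.77 and 3.16 in the other 6 controls. The 3 low animals thus came from both groups, and the nearest high animal was 98.6-fold brighter than the nearest low one.

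The other 2 beta-defensin probes split off the same animals. The probe for BBD(C7), a putative beta-defensin, read -1.97 in prednisolone 25, -1.95 in prednisolone 27 and 0.82 to 2.31 in the other prednisolone animals. In controls it read -1.74 in animal 18 and 0.80 to 2.28 in the rest. The probe for a precursor like neutrophil beta-defensin-9 read -4.58 and -3.69 in prednisolone 25 and 27, and -2.25 to -0.42 in the other prednisolone animals. It read -3.97 in control 18 and -2.28 to -0.80 in the other controls. All 3 probes were well above background in all 14 animals, so the low level was a measured signal and not a missing one. These 3 are all the tested probes whose array description names a defensin, a family put together after the members had been seen. Of the list of 9 defensin and antimicrobial gene probes, EBD is the only member.

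**Figure D1:**
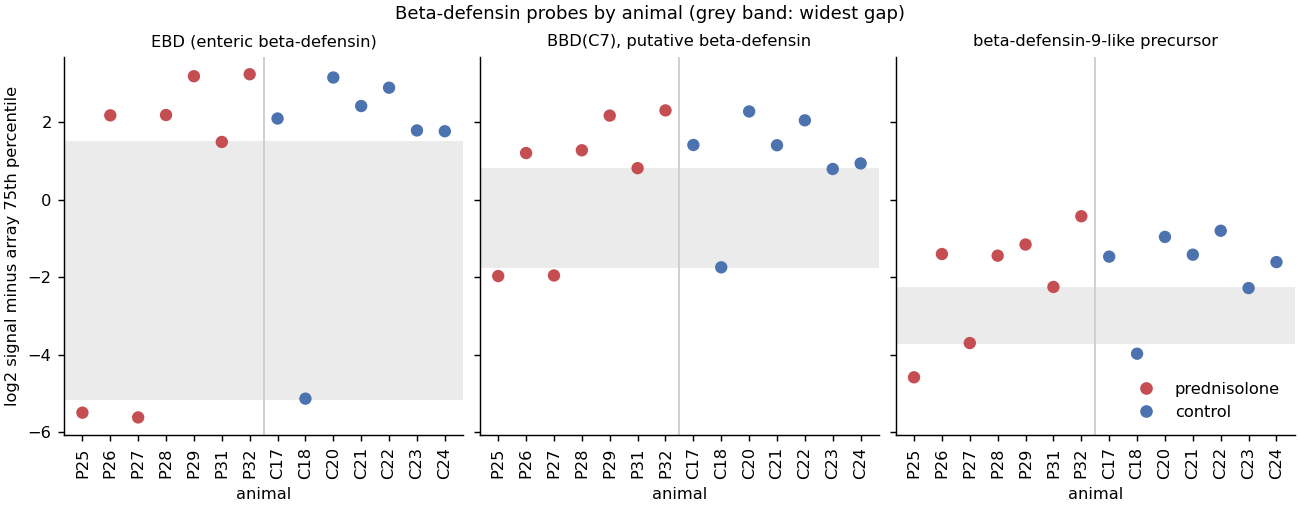
Log2 level of the 3 beta-defensin probes in each animal, prednisolone animals (red) left of controls (blue), with 1 point per animal and the widest gap shaded. Prednisolone 25, prednisolone 27 and control 18 lie below the gap in all 3 panels.

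No other probe followed the defensins closely. In total 60 tested probes separated prednisolone 25, prednisolone 27 and control 18 from the rest, counting the 3 defensins. The gaps of the defensins at this split were 6.62, 2.54 and 1.42, and the widest among the remaining probes was 0.20. None of the 88 tested marker probes of 13 testicular, vascular, blood, immune and epididymal cell types separated these animals. Few probes of any kind did so, 60 of all 18485, so the count of 0 says nothing about these cell types. Among the 11 high animals, prednisolone 32, control 20, prednisolone 29 and control 22 had the 4 highest levels of EBD and also of BBD(C7). Prednisolone 30, which the choice did not use, lay on the high side of all 3 in the authors' deposited table, and in the gap of EBD in its own scanner file. With normexp background correction the gaps of EBD and BBD(C7) divided the animals in the same way, while the beta-defensin-9-like probe had its widest gap, of 0.37, elsewhere.

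MHC class I probes made up the second family. By their array descriptions 9 tested probes measure class I or class I-like genes, and 6 of them are members, against 0.541% of all tested probes. The family was put together after the members had been seen, so the count is a description. Of the list of 21 MHC probes, class II and antigen processing genes included, 2 are members, and the median gap of that list was 0.34.

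BOLA-NC1, which RefSeq names as non-classical and the array describes as a BoLA class I transcript, was high at 2.95, 2.22, 1.69 and 1.20 in prednisolone 25, 28, 29 and 32. It was low at -1.90, -3.16 and -8.92 in prednisolone 26, 27 and 31. Among controls it was high at 1.15, 3.24 and 1.62 in animals 20, 21 and 22, and low between -4.24 and -2.32 in animals 17, 18, 23 and 24. Prednisolone 31 was the only animal in which this probe was not well above background. The widest gap that any other probe showed between the same animals was 0.36, in the class II gene BOLA-DQA2, which was looked up after these values were seen.

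MHCLA1, a class I-like gene of a family related to the ULBP and RAET1 ligands of the natural killer cell receptor NKG2D, was measured by 2 probes and both are members. The first read 0.96 in prednisolone 25 and 1.23 in prednisolone 31, and -4.59 to -2.76 in the other prednisolone animals. It read 1.03 in control 22 and -4.97 to -2.23 in the other controls. The second probe was high in the same 3 animals, at -1.11, -1.69 and -1.23, and between -8.28 and -2.88 in the rest. The low side of MHCLA1 was spread over several log2 units in both probes, while its 3 high animals lay within a narrow band. The second probe was well above background on 11 of 14 arrays, and its lowest levels lay beneath the floor of their arrays. Part of its spread therefore cannot be told from background. With normexp correction the widest gap of the second probe lay elsewhere, at 0.88.

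Related ligands split the animals in other ways, and were named after their values were seen. MIC1, similar to the class I polypeptide-related sequence B, was low in prednisolone 31 at -7.51 and in controls 23 and 24 at -6.79 and -7.88. Its other animals lay between -4.15 and -1.36 under prednisolone and between -3.86 and -1.67 among controls. MIC1 was well above background on 12 arrays, and its gap was at least 2.32. RAET1G, labelled MHCLA2 on the array, was low in prednisolone 31 at -3.19 and in controls 17 and 22 at -2.89 and -3.78. With normexp correction the widest gaps of MIC1 and RAET1G lay elsewhere, at 0.45 and 0.29. Prednisolone 31 was thus high for MHCLA1 and low for BOLA-NC1, MIC1 and RAET1G. Among all members it was on the high side of 52, and among all tested probes of 52.6%. A mix of high and low sides in a few named probes therefore does not set this animal apart.

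A class I-like probe described as similar to human HLA-B was well above background in 7 animals at -6.33 to -3.49, prednisolone 26, 28 and 29 and controls 21, 22, 23 and 24. Of the other 7 animals only 1 was well above background, and the gap was at least 0.64 when the floor was applied.

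The class I probes JSP.1 and BOLA were not members and were looked up after the members had been seen. The gap was 0.69 for JSP.1 and 0.25 for the probe named BOLA. The BOLA probe lay between 4.34 and 5.82 in prednisolone animals and between 4.83 and 6.83 in controls. Its highest animal, control 17, stood apart from control 24 at 5.82, but a single animal on a side did not count as a level under the rule.

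**Figure D2:**
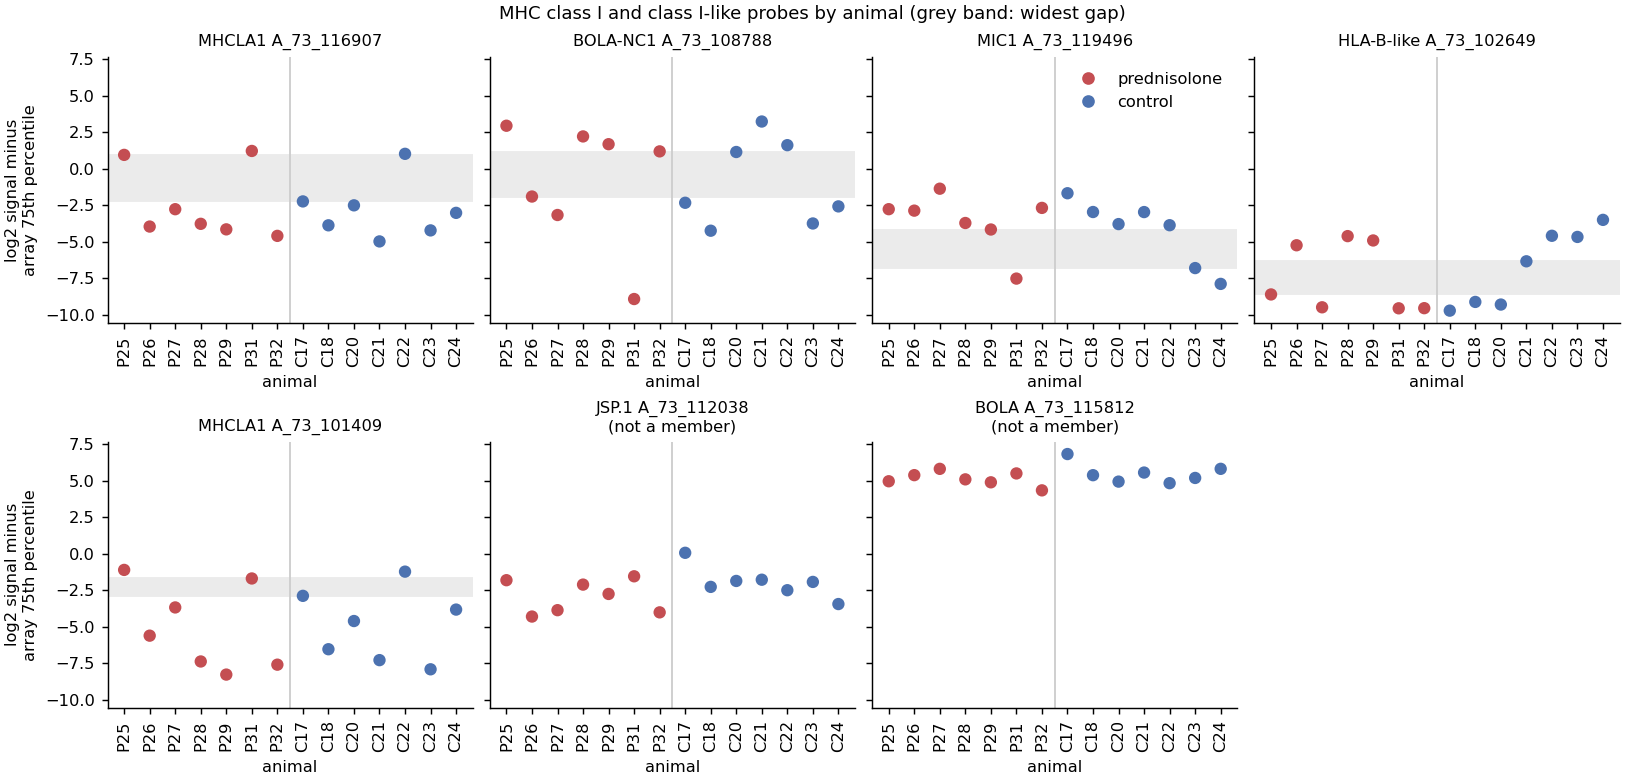
Log2 level of MHC class I and class I-like probes in each animal, 1 panel per probe, prednisolone animals (red) left of controls (blue), with the widest gap of each member shaded. The MHCLA1 probes share 3 high animals, BOLA-NC1 and MIC1 divide the animals differently, and the panels of JSP.1 and BOLA have no shaded gap.

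Other members with immune functions were named after their values were seen, apart from FCRL5. FCRL5, an Fc receptor-like protein of B cells, was high in prednisolone 32 at -3.19 and in controls 22 and 24 at -3.88 and -3.78. In all other animals it lay between -7.89 and -6.94, where 5 of 11 were well above background. With normexp correction the widest gap of FCRL5, of 0.88, lay elsewhere. The IgG3 heavy chain was high in prednisolone 28 and 29 at -2.48 and -1.24 and in control 22 at -2.83. It was at most -5.32 in the other prednisolone animals and at most -5.13 in the other controls. The chemokine CCL14 was low in these 3 animals, none of which was well above background for it. When the floor was applied, the widest gap of CCL14 lay elsewhere, at 0.34. With normexp correction the widest gaps of the IgG3 heavy chain and CCL14 lay elsewhere, at 0.79 and 0.97. A tested list of 4 immunoglobulin and T cell receptor probes held no member, and neither did the 10 lymphocyte probes or the 7 macrophage probes. Members were 0.541% of all tested probes, so lists this short would seldom hold one and their lack of members says nothing about these genes.

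A pair of probes for EMR3-like adhesion receptors of myeloid cells, also named after their values were seen, shared a split of 8 high and 6 low animals. LOC530259 lay between -4.03 and -3.45 in prednisolone 27, 28, 29 and 32, and between -9.59 and -6.96 in prednisolone 25, 26 and 31. It lay between -4.05 and -2.82 in controls 18, 21, 23 and 24, and between -8.92 and -8.64 in controls 17, 20 and 22. These low levels of LOC530259, apart from that of prednisolone 26, lay beneath the floor of their arrays. LOC614022 divided the animals in the same way, with a gap of 1.98. With normexp correction the widest gap of LOC530259 and LOC614022 lay elsewhere, at 1.14 and 1.42. Whether the 2 probes read 1 transcript or several was not tested.

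Genes of metabolism, transport and signalling were also among the 10 widest gaps. KMO, the kynurenine 3-monooxygenase of tryptophan breakdown, was low at -5.59, -5.52 and -5.37 in prednisolone 25, 31 and 32, and between -1.49 and 0.05 in the other prednisolone animals. It was low at -6.20 and -5.86 in controls 20 and 21, and between -1.56 and -0.44 in the other controls. All 14 arrays measured it well above background, and the gap was 14.1-fold.

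SLC51A, the alpha subunit of a bile acid and steroid exporter, was low at -7.25 and -7.88 in prednisolone 27 and 29. It was between -1.99 and -1.11 in the other prednisolone animals. In controls it was low at -5.86, -8.29 and -6.97 in animals 17, 23 and 24, and between -2.35 and -1.73 in the others. AZI2, an adaptor of the kinase TBK1, was at -8.38 in prednisolone 26, against -3.48 to -2.16 in the other prednisolone animals. It was between -8.27 and -7.35 in controls 17, 20 and 22, and between -3.95 and -2.98 in the other controls. The low levels of AZI2 lay beneath the floor of their arrays, and its gap was at least 3.03. Those of SLC51A did so in prednisolone 29 and in controls 23 and 24. With normexp correction the widest gap of KMO, SLC51A and AZI2 lay elsewhere, at 1.26, 1.32 and 0.28.

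A pair of probes for transcripts without a gene name were also among the 10 widest measured gaps. Probe A_73_108569 lay between -1.57 and -0.40 in prednisolone 25, 26, 27 and 32, and between -8.86 and -8.20 in prednisolone 28, 29 and 31. It lay at -1.66 in controls 23 and 24, and between -9.31 and -7.30 in the other 5 controls. Only 1 of its 8 low animals was well above background, and the gap was at least 4.80 on the log2 scale. Probe A_73_117592 was beneath background in prednisolone 27 and in controls 17 and 23. Its gap was at least 2.18, with the other animals at -4.09 to -3.11 under prednisolone and -4.57 to -3.46 among controls. Transcripts without identification made up 8 of the 100 members and 10.2% of all tested probes.

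GSTCD, a protein with a glutathione S-transferase C-terminal domain, was the other gene with 2 member probes. The first probe read -5.32 in prednisolone 29 and -3.95 to -2.95 in the other prednisolone animals. It read -5.89 and -5.44 in controls 18 and 24, and -4.24 to -2.52 in the other controls. The second read -3.64 in prednisolone 29 against -2.34 to -1.15 in the other prednisolone animals. In controls 18 and 24 it read -4.74 and -4.16, against -2.74 to -0.98 in the others. Among other tested probes the widest gap between these animals was 0.16.

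Of the 100 members, 12 probes of 10 genes had another tested probe for the gene, and in 4 the other probe separated the same animals without overlap. Among all 2650 tested probes with another probe for their gene, 4.87% did so. With normexp correction, which chose largely different members, it was 8 of 13. The 4 are the MHCLA1 and GSTCD pairs, in which both probes are members. In the other 8, from AFF3, BAALC, BEND6, ELMO2, KRT4, MMD, ST3GAL1 and TUBGCP3, no other probe separated the animals.

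TUBGCP3, a subunit of the gamma-tubulin ring that nucleates microtubules, is one of these. Its member probe was not well above background in prednisolone 26, 27, 28, 29 and 31 nor in control 17, and lay between -5.57 and -3.47 in the other 8 animals. Its other probe was well above background on all 14 arrays and lay between -1.92 and -1.65 in those 6 animals, within the range of -2.66 to -1.21 in the other 8. The member probe of ELMO2, a regulator of cell motility, was low at -1.71 and -1.30 in prednisolone 25 and 26 and at -1.25 in control 22. Its other probe read 1.75 to 1.97 in these 3 animals and 1.33 to 1.91 in the rest. What sequence each probe covers was not used here.

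Members seldom moved with the genes beside them. Of the 100, 70 could be placed in the gene order of a RefSeq table of assembly ARS-UCD2.0, and 441 tested probes measured genes within 5 places of them. Of these 441, 5 separated the member's animals without overlap, or 1.13%, where 0.401% of all probes did so on average. Named for their small number after their values were seen, they are MT2A beside MT1A, LRRC2 beside TMIE, MAP3K14 beside RDM1, and in the opposite direction TRAM1L1 beside NDST4 and CEP120 beside PRDM6. MT1A, a metal-binding metallothionein induced by glucocorticoids, was high in prednisolone 27 at -4.81 and in controls 17, 20 and 24 at -4.14, -4.68 and -4.98. The other prednisolone animals lay between -7.12 and -6.12, and the other controls between -7.47 and -6.14. The desmosomal cadherins DSC3 and DSG4 are the only members within 5 genes of each other, and they divided the animals differently.

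The members did not share a common set of animals. The 100 members fell into 91 different splits, and 17 members shared 8 of them. Each prednisolone animal was on the high side of 52 to 59 members, and each control on the high side of 51 to 64. Over all tested probes the shares were 46.2% to 55.7% and 45.2% to 55.3%. Any pair of animals was on the same side of 42 to 70 members, and of 34.9% to 72.3% of all tested probes. The pair with 70 was prednisolone 25 and 26, which were on the same side of 72.3% of all tested probes as well.

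**Figure D3:**
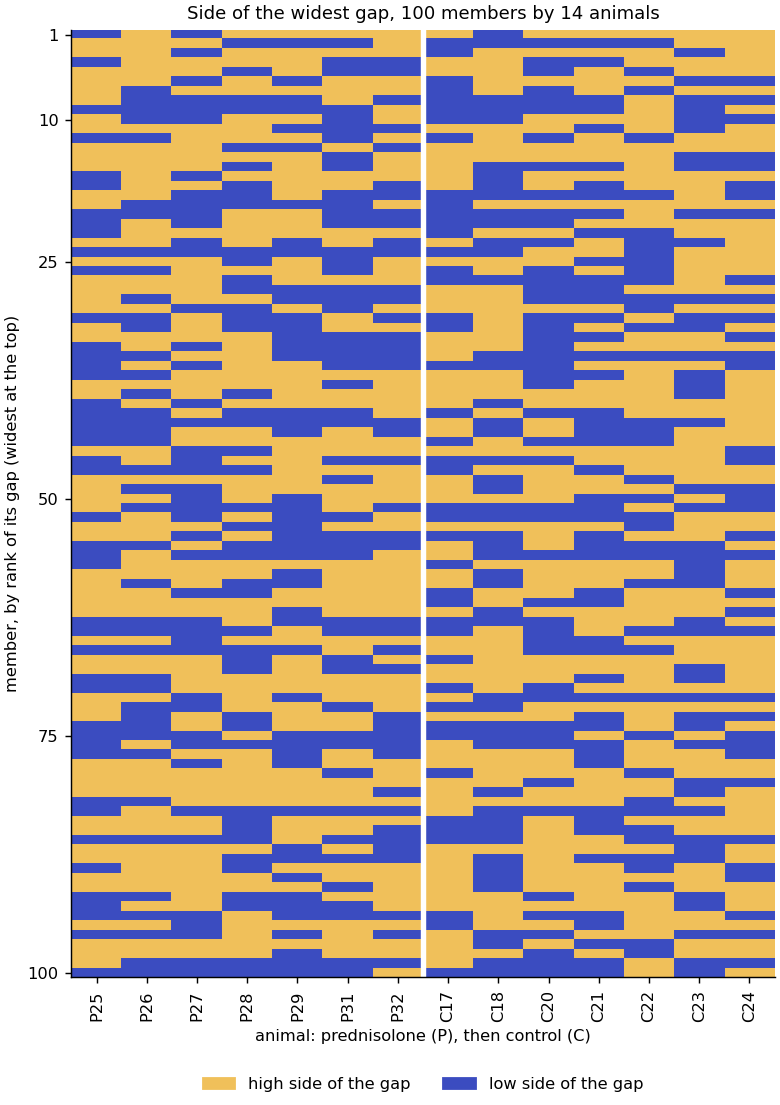
Side of the widest gap for each of the 100 members (rows, widest gap at the top) in each of the 14 animals (columns), prednisolone left of controls. Yellow marks the high side and blue the low side, and no block of animals stays together down the page.

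Prednisolone treatment was the first label set against the levels. No member passed limma's test of prednisolone against control with Benjamini-Hochberg adjustment over all tested probes at 0.05, where 0.0% of the 18485 probes passed, and no adjusted p was below 0.980. The unadjusted p was under 0.05 for 9 members, and for 4.4% of all probes. These p-values measure the spread between animals, and their precision is limited by the number of arrays. Of the members 55 had higher and 45 lower mean levels with prednisolone. The median standard error of the difference was 0.60 among members and 0.17 among all tested probes. The rule chose members for animals far apart, so this larger standard error is part of the choice.

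The sides of the gap were also set against treatment. The smallest two-sided p that Fisher's exact test can give here, for a perfect split of 7 prednisolone animals from 7 controls, is 0.000583. A single such split cannot pass adjustment over 18485 probes. The test called no member and 0.0% of all probes, and the adjusted p was 1 even for the 1 probe with a perfect split, so the count of 0 says nothing about the members. The smallest unadjusted p among members was 0.0291. No member came within 1 animal of the perfect split, but only 1 of all tested probes matched it and 8 were 1 animal away, which is far below 1 in 100. Over members and animals together, prednisolone animals were on the high side in 55.6% of cases and controls in 56.0%. Over all tested probes the share ran from 46.2% to 55.7% by prednisolone animal and from 45.2% to 55.3% by control.

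The member nearest to the treatment split was ZNF696, a zinc finger protein, which was 2 animals away. It lay at -8.84 in prednisolone 28 and between -4.88 and -3.96 in the other 6 prednisolone animals, and at -4.70 in control 23 and between -8.40 and -6.86 in the other 6 controls. Of its 7 low animals only 1 was well above background. The measured difference was 2.39 ± 0.71 (SE, n = 7 each), or 1.86 with the floor, with limma's adjusted p at 0.980, higher in 6 of 7 prednisolone animals than in 6 of 7 controls. A slide block gave 2.53 and normexp correction 0.41, and the difference was 3.71 within slide 1 and 0.18 within slide 4. Here and for the members below, slide 1 compares prednisolone 25 and 26 with controls 17 and 18. Slide 4 compares only prednisolone 29 with control 23, single animals whose difference has no measure of spread.

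SLC50A1, a sugar transporter, was low in all 7 prednisolone animals and in 3 controls, with the 4 remaining controls between -0.57 and 0.02. All 4 high animals were controls. The difference was -1.60 ± 0.45 (SE, n = 7 each; limma adjusted p = 0.980). A slide block gave -0.97, and it was -0.07 within slide 1 and -2.78 within slide 4. The 2 controls on slide 1 were low and the control on slide 4 was high.

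TMIE, a protein of hair cell mechanotransduction, was low in prednisolone 28, 29 and 32 at -4.77, -5.20 and -4.79. The other prednisolone animals lay between -1.95 and -0.66 and all 7 controls between -1.99 and -0.69. The difference was -1.64 ± 0.64 (SE, n = 7 each; limma adjusted p = 0.980), or -0.52 within slide 1 and -3.73 within slide 4. The protease-like LOC617663 was high in controls 17, 20 and 24 alone, at -4.01, -3.15 and -3.27. It lay between -6.75 and -5.46 in prednisolone animals, and the difference was -1.31 ± 0.42 (SE) with the same adjusted p. A slide block gave -0.52, within slide 4 it was 0.28, and with prednisolone 30 included it was -0.69.

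The glutamate transporter SLC1A6 was low only among controls, at -2.15, -2.32 and -2.17 in animals 17, 20 and 21. It was between -1.06 and -0.04 in prednisolone animals, which overlapped the other controls at -1.04 to -0.23. The MEGF11-like LOC616803 was likewise low in 3 controls, at -5.05 to -3.95 in animals 18, 21 and 22, and between -2.81 and -1.54 in prednisolone animals. SLC1A6 differed by 0.87 ± 0.30 (SE). LOC616803 averaged -2.06 ± 0.40 in prednisolone animals and -3.17 ± 1.45 in controls (SD, n = 7 each), and its difference was 0.14 with a slide block, 0.19 with a scan day block and -0.91 within slide 4. Both had an adjusted p of 0.980 in limma.

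For the other members nearest to the threshold the groups overlapped. The measured difference of TUBGCP3 was -2.53 ± 0.94 (SE), or -1.69 with the floor, since no low animal was well above background. It was -1.49 with a slide block, 0.06 within slide 1 and -4.58 within slide 4. ITIH5, of the hyaluronan-binding inter-alpha-trypsin inhibitor family, differed by 1.07 ± 0.49 (SE), by -0.01 in the fit blocked on slide and by -0.49 within slide 1. NDST4, a heparan sulfate modifying enzyme, was high in prednisolone 25, 26 and 29 and in control 23. It differed by 1.44 ± 0.76 (SE), or 3.00 with a slide block, 4.47 within slide 1 and 0.06 within slide 4. The measured difference of RASSF6 was 0.79 ± 0.47 (SE), or 0.36 with the floor, since its low animals lay beneath the floor of their arrays. It was 1.71 with a slide block and -0.15 with normexp correction. AFF3 differed by -1.15 ± 0.58 (SE), by -2.18 with a slide block and by 0.25 within slide 4. The unnamed A_73_105121 differed by -1.18 ± 0.53 (SE), and by -0.21 within slide 4. All had an adjusted p of 0.980 in limma.

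Of the list of 20 glucocorticoid target probes, MT1A is the only member. The lists of 22 interferon-induced, 20 immediate early and stress, 19 glutathione and drug enzyme and 3 sex chromosome probes held none. With members at 0.541% of all tested probes, lists of this size would seldom hold one, so these counts say nothing about the listed genes. The difference of MT1A between prednisolone and control was -0.43 ± 0.51 (SE, limma adjusted p = 0.980). EBD differed by -1.12 ± 1.60 (SE, 95% interval -4.51 to 2.28), and its limma adjusted p was 0.982. With 7 animals per group, the 2 low prednisolone animals against 1 low control leave that interval wide.

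**Figure D4:**
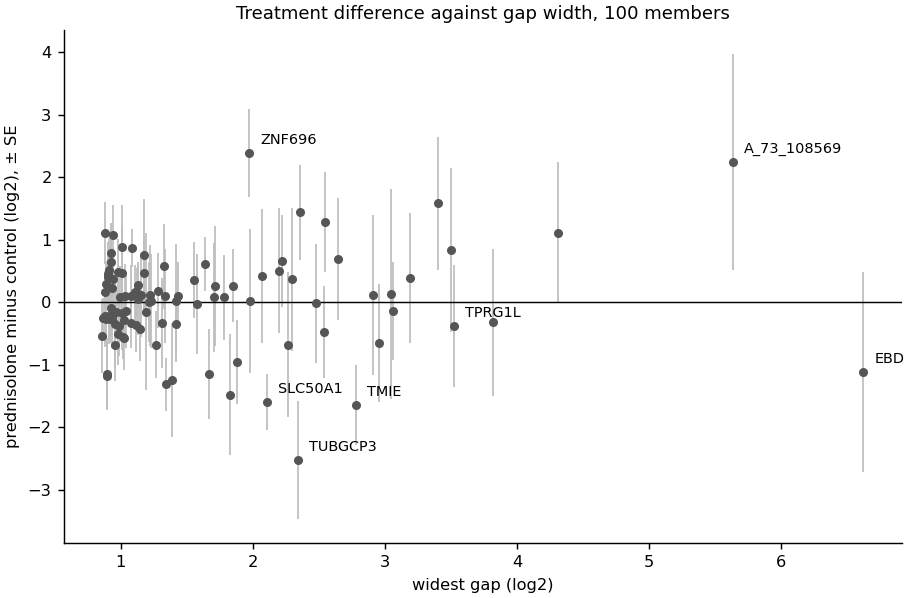
Difference of prednisolone minus control (log2, ± SE, n = 7 each) against the widest gap (log2) for each of the 100 members, with the zero line. Differences lie on both sides of 0 among narrow and wide gaps, and none passed the test.

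Slide was the second label. The 14 arrays lay on 7 slides, of which 5 held at least 2 of them and slides 1 and 4 held both groups. One member passed limma's F test of slide with adjustment over all probes, and it was the only one of 18485 probes to do so, or 0.00541%. The unadjusted p was under 0.05 for 15 members, and for 11.9% of all probes. Animals of the same slide were on the same side of 58.5% of members and animals of different slides of 55.5%, against 60.3% and 55.0% over all tested probes.

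The member that followed the slide was TPRG1L, a vesicle-associated regulator of transmitter release, described on the array as similar to the human FAM79A gene. It lay at -3.45 in prednisolone 28 on slide 6, at -3.46 and -3.38 in prednisolone 31 and 32 on slide 7, and at -3.81 and -3.94 in controls 20 and 22 on slide 2. On slides 1, 3, 4 and 5 it lay between 0.14 and 0.93 in prednisolone animals and between 0.21 and 0.64 in controls. No slide held animals of both levels, and the levels were 11.5-fold apart at the gap. The adjusted p for slide was 4.6e-06 with limma. Because TPRG1L was chosen for 2 tight levels, any split of it that divides no slide gives a very small p. The size of this p therefore does not measure how unusual the split is.

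Its split was the only one among the members to leave no slide divided, where 3.41% of all tested probes left none divided. Both levels were well above background in all 14 animals. Of 50 probes that separated these animals, the next widest gap was 0.26, so no other tested probe separated these animals by as much. Slides 1, 4 and 7 were scanned on 1 day and held both levels, and limma's F test of scan day called no member. For prednisolone 30 on slide 4, whose other animals were high, the deposited table put TPRG1L on the low side. The treatment difference of TPRG1L was -0.38 ± 0.98 (SE, limma adjusted p = 0.991). Slide 2 held controls and slides 6 and 7 prednisolone animals, and what the animals on a slide shared besides the slide was not tested.

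**Figure D5:**
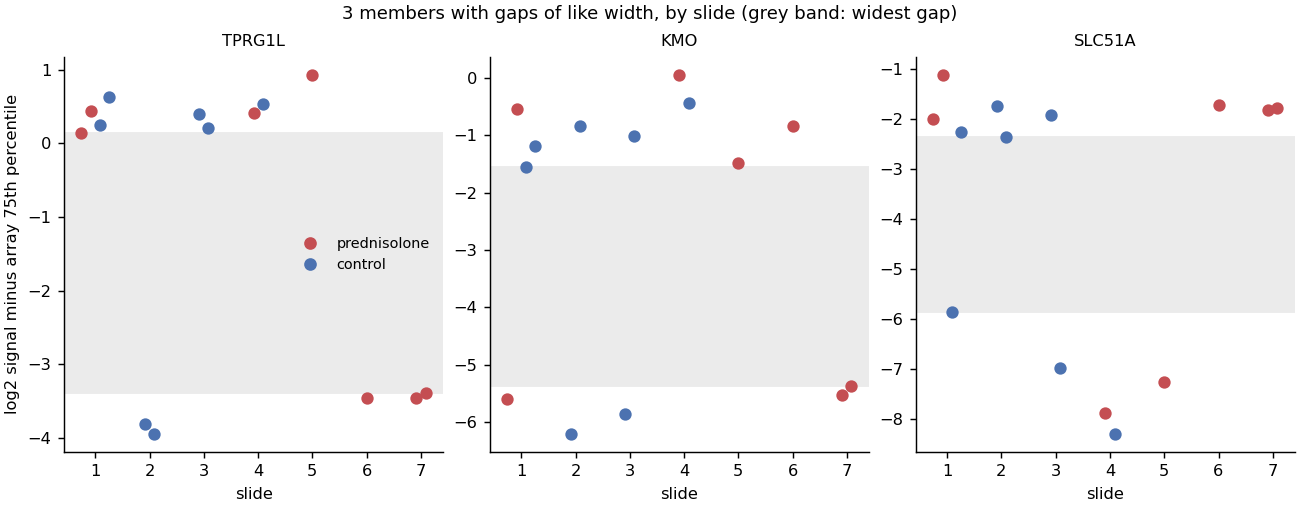
Log2 level of TPRG1L, KMO and SLC51A by slide (1 to 7), with 1 point per animal, prednisolone in red and control in blue, and the widest gap shaded. Slides 2, 6 and 7 lie below the gap of TPRG1L as wholes, while the gap of KMO runs through slides 1, 2 and 3, and that of SLC51A through slides 1 and 3.

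Prednisolone 30 gave a partial look at an animal that did not choose the members. In the deposited table it lay outside the gap in 82 of 96 members that could be assessed, 33 on the low and 49 on the high side. That is 85.4%, against 83.3% of all tested probes with their narrower gaps, so the members' share was near that of all probes. In its scanner file it lay outside the gap in 73 of the 100 members, against 96.2% of all tested probes, and the dimmest signal well above background there was at -2.15. Where both sources put it on a side, they named the same one in 38 of 56 members. Most of these 56 could not be judged on so dim an array. In only 6 of them did both levels lie above -2.15, and there the sources named the same side in 5. Of the 10 in which prednisolone 30 was well above background in its scanner file, 8 had the same side.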

How the data were processed

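Total RNA from the testis of 15 cattle was measured on single-colour Agilent arrays. The intensities in the scanner files are the authors' output of Feature Extraction 9.5.1.1, per the file headers. The processed intensity is background-subtracted and multiplicatively detrended, and scans at 2 sensitivities were combined, per the series' design text. The authors' deposited table holds linear intensities brought to a common level by a method not given in the sources used here, and the submitters' processing notes name R 2.11.1.

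Control spots and outlier spots were left out, log2 processed signals were scaled to each array's 75th percentile, and spots of a probe were averaged. Of 21475 probes, 16298 had a gene symbol and 402 a LOC number, through array annotation and RefSeq names of assembly ARS-UCD2.0. Treatment was tested with limma 3.58.1 (lmFit, eBayes) on 7 prednisolone and 7 control arrays in R 4.3.3, slide with limma's F test, and side against treatment with Fisher's exact test, all adjusted by Benjamini-Hochberg over 18485 probes at 0.05. The methods were tested on simulated data. Python 3.11.15, numpy 2.4.6, scipy 1.17.1 and pandas 2.3.3 did the rest.

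The members and the gene lists were chosen with earlier results of these data known. The text names the 10 widest gaps, the 6 smallest treatment p-values in each direction, members of the 3 most shared splits, members with another probe, listed genes, neighbouring members, and the 3 probes on either side of the limit. Other names were chosen after their values were seen. Alternatives changed the background correction, scaling, filter, side size, number of members and arrays. Results for some class I probes are not reported here.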

Additional observations from a re-analysis of the deposited data

Results flagged for a closer look

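An animal far from the others of its group was looked for in 100 groups of values, and 15 were found, in 12 genes and in array quality. The count of about 5 that chance alone would flag is no measure here, because the members were chosen by these same values. Since the members were chosen for a gap, a lone animal of a group across the gap is part of that choice. Among prednisolone animals, prednisolone 27 stood at -9.87 for probe A_73_117592, prednisolone 26 at -8.38 for AZI2 and prednisolone 32 at -3.19 for FCRL5. Prednisolone 28 stood at -8.84 for ZNF696, and prednisolone 29 at -5.32 for GSTCD and -1.96 for MMD. Prednisolone 27 was also apart for MT1A, at -4.81. Among controls, animal 18 stood at -5.13 for EBD and -1.74 for BBD(C7), and animal 23 at -4.70 for ZNF696 and -2.64 for NDST4. Control 17 stood at -9.11 for TUBGCP3 and -3.59 for ST3GAL1. The array of prednisolone 30, left out of the choice of members, had a 75th percentile of processed signal of 49.4, and 36.5% of its probes stood well above background.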

How the results depend on the processing

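No paired analysis was possible because the groups share no animal numbers. Of the 100 members, 14 were also chosen with normexp correction, 60 from the authors' deposited table, 49 when above background on all arrays, 60 with at least 2 animals a side, 64 with at least 4 a side, and 50 when 50 were kept. No setting called a member for treatment with limma, and the unadjusted count was 1 with normexp. The members called for slide numbered 2 in the deposited table, 2 with all arrays above background, 3 with no filter, and 0 by scan day. Members that left no slide divided numbered 2 in the deposited table, 4 with all arrays above background, 3 with a floor, 5 with at least 2 a side, 2 with at least 4 a side, 6 of 200 members, and 2 without control 17. Members whose other probe separated the same animals numbered 8 of 13 with normexp, 2 of 8 in the deposited table, 2 of 9 with at least 2 a side and 1 of 3 among 50 members. Matching shares of all tested probes are given only for the main setting. There 0.00541% were called for slide, 3.41% left no slide divided, and 4.87% had another probe that separated. These counts therefore do not show that members followed slides more under other settings. Treatment differences turned sign for LOC616803 within slide 4 (-0.91), ITIH5 with a slide block (-0.010) and within slide 1 (-0.49), and RASSF6 with normexp (-0.15). They also did so for LOC617663 within slide 4 (0.28), TUBGCP3 within slide 1 (0.060) and AFF3 within slide 4 (0.25). Within slide 4 single animals are compared, prednisolone 29 and control 23, so a change of sign there may be that of 1 animal. The cause was not tested. The widest gap fell between other animals in 33 of 48 named probes with normexp and 11 of 48 with a floor. Signal near background limits the 22 members with no low animal above it and the 29 with only some.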
